A study of Homo sapiens with 18 samples.

Results

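The genes described here are 10 of the cyclins, cyclin-dependent kinases (CDKs) and CDK inhibitors that govern the G1 phase of the cell cycle: the D cyclins CCND1, CCND2 and CCND3, the E cyclins CCNE1 and CCNE2, the kinases CDK4 and CDK6, and the inhibitors CDKN1B (p27), CDKN2C (p18) and CDKN2D (p19). They were taken by symbol from the 23686 genes of the deposited tables, and all 10 were found in the tables of both cell lines. The rule names the genes and sets no threshold on a measured value, but they were chosen with earlier results of these data known. RNA was measured by bulk sequencing in 18 libraries of OCI-Ly1 and TMD8, established lines of human diffuse large B-cell lymphoma. Each line was treated with JIB-04 at 150 nM or at 500 nM, or with 0.01% DMSO as the vehicle control, and every group had 3 libraries. JIB-04 is a small molecule that inhibits histone demethylases with a Jumonji (JmjC) domain. OCI-Ly1 grew in IMDM and TMD8 in RPMI, both with 10% serum, so line and medium cannot be told apart. The labels call library preparation technical triplicate and leave unstated if separate cultures lay behind the 3 libraries of each group, so the p-values measure only the spread between these libraries, which may be technical. The labels give neither a treatment time nor a batch.

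In G1, mitogen signals raise D cyclins, which bind CDK4 or CDK6 and start to phosphorylate the retinoblastoma protein. E cyclins with CDK2 complete that step, E2F factors are released, and genes for DNA synthesis are switched on. INK4 inhibitors, among them CDKN2C and CDKN2D, bind CDK4 and CDK6 and keep D cyclins off, while CDKN1B, of the CIP/KIP family, binds cyclin and kinase together and mainly restrains CDK2. In mature B cells CCND2 and CCND3 are the usual D cyclins, and CCND1 is known there for its activation by translocation in mantle cell lymphoma.

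Totals of estimated counts per library ran from 17579732 to 32651115 for OCI-Ly1 and from 9550092 to 20509500 for TMD8. The B-cell markers MS4A1, CD79A, CD79B, PAX5 and CD22 reached 1 TPM (transcripts per 1000000) in every group. Summed TPM of 7 markers of the activated B-cell type was 141 to 147 in untreated OCI-Ly1 and 614 to 754 in untreated TMD8, and that of 6 germinal-centre markers 163 to 177 and 38.2 to 44.9. The germinal-centre list split by gene: MME, MYBL1 and GCSAM reached 1 TPM in OCI-Ly1 alone, LMO2 and SERPINA9 in TMD8 alone, and S1PR2 in both. Of the 7 activated markers, 6 reached 1 TPM in OCI-Ly1 with DMSO and all 7 in TMD8 with DMSO. Of the other cell types checked, CD3D of the T-cell list reached 1 TPM in OCI-Ly1 alone, and the summed T-cell list there ran from 12.5 to 14.3 TPM with DMSO and from 5.53 to 6.04 TPM at 500 nM. Of 4 epithelial and stromal markers, KRT8 and KRT18 reached 1 TPM in both lines, EPCAM in OCI-Ly1 and COL1A1 in treated TMD8, with summed levels of 14.0 to 17.5 and 7.78 to 9.97 TPM; none of the 4 myeloid markers did in either line; the part of any such signal in the results was not tested. In TMD8 10 genes, led by the short noncoding loci MIR3687, MIR3648 and MIR663A, took 54.2 to 62.1% of all TPM with DMSO and 71.2 to 74.3% at 500 nM. In OCI-Ly1 the 10 leading genes took 17.5 to 17.8% and 22.9 to 24.7%. TPM levels of every other gene are pressed down by that much in TMD8, so TPM is used here to compare genes within a library. The marker sums above carry this effect, so their sizes are not to be compared between lines or doses. Changes given below on the TPM scale, tested by limma on uncentred log2(TPM + 1), carry it too. On that scale the median log2 change of all genes at 500 nM was -0.34 in TMD8 and 0.12 in OCI-Ly1. The median line difference (OCI-Ly1 minus TMD8) was 0.47 in the 500 nM change and 0.80 with DMSO. The same gene is compared across groups in counts per 1000000 (CPM) scaled by TMM, edgeR's correction for composition, computed within each line.

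The lines were compared first without drug. Per length, CDK4 was the most abundant member in OCI-Ly1 with DMSO at 170 ± 10.7 TPM (SD, n = 3), followed by CCNE2 at 100.4 ± 7.4, CDKN2C at 79.4 ± 7.2, CDK6 at 46.2 ± 3.0, CDKN1B at 32.8 ± 1.3, CCNE1 at 28.6 ± 1.6, CCND3 at 18.8 ± 0.88 and CDKN2D at 9.60 ± 1.3. Each of these neighbours lay apart in all 3 libraries. CCND2 and CCND1 followed at 0.031 and 0.018 TPM, with overlapping ranges. In TMD8 with DMSO CCND2 led at 122 ± 13.2 TPM, then CDK4 at 59.7 ± 5.5. CCND3 (18.1 ± 1.3), CDKN1B (15.3 ± 1.4) and CCNE1 (15.1 ± 2.1) overlapped each other in turn, as did CDKN2C (11.1 ± 0.47) with CDK6 (10.5 ± 1.5) and CCNE2 (5.19 ± 0.63) with CDKN2D (4.18 ± 0.74). CCND1 was last at 0.56 ± 0.19 TPM. The most abundant D cyclin thus differed by line, CCND2 in TMD8 and CCND3 in OCI-Ly1, and CCNE2 ranked high in OCI-Ly1 and low in TMD8.

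In a single fit of all 18 libraries (edgeR quasi-likelihood test, Benjamini-Hochberg adjusted p under 0.05), 4 of 10 members were higher and 3 lower in untreated OCI-Ly1 than in untreated TMD8. Over all 16604 genes tested, 37.8% were higher and 39.0% lower, so the share of members called, 7 of 10, is near that background. CCNE2 was 9.94-fold higher in OCI-Ly1 (log2 difference 3.31 ± 0.08 SE, adjusted p = 8.3e-24). CDKN2C was 3.29-fold, CDK6 2.26-fold and CDK4 1.46-fold higher (adjusted p = 2.4e-18, 6.9e-16 and 2.5e-09). CCND3 was lower in OCI-Ly1 by this count-based scale, at 0.525-fold (adjusted p = 5.4e-12). The sign turned on the TPM scale, where the log2 difference was 0.06 (adjusted p = 0.52) and the median of all genes 0.80. On centred TPM CCND3 kept its direction and call. CCNE1 (log2 difference -0.04, adjusted p = 0.59), CDKN1B (0.13, 0.056) and CDKN2D (0.23, 0.17) did not pass the test. On the TPM scale all 3 passed, with differences of 0.88, 1.05 and 1.04, where the median of all genes was 0.80. On centred TPM CDKN1B passed (0.25, adjusted p = 7.0e-04), while CCNE1 (0.081, 0.16) and CDKN2D did not.

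CCND2 all but separated the lines by presence. The 3 OCI-Ly1 DMSO libraries held 4, 4 and 2 counts of CCND2, against 18118, 19766 and 22154 in TMD8. Corrected for depth, the TMD8 level was 7384 times that of OCI-Ly1, with a 95% counting interval from 4015 to 15398. The 6 treated OCI-Ly1 libraries held 1 to 10 counts. CCND1 had 2, 1 and 1 counts in OCI-Ly1 and 66, 44 and 64 in TMD8, a ratio of 53.5 with an interval from 20.5 to 199. Both genes failed the low-count filter within OCI-Ly1, so 8 members were tested for a drug effect there and all 10 in TMD8. These intervals cover counting error only.

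**Figure D1:**
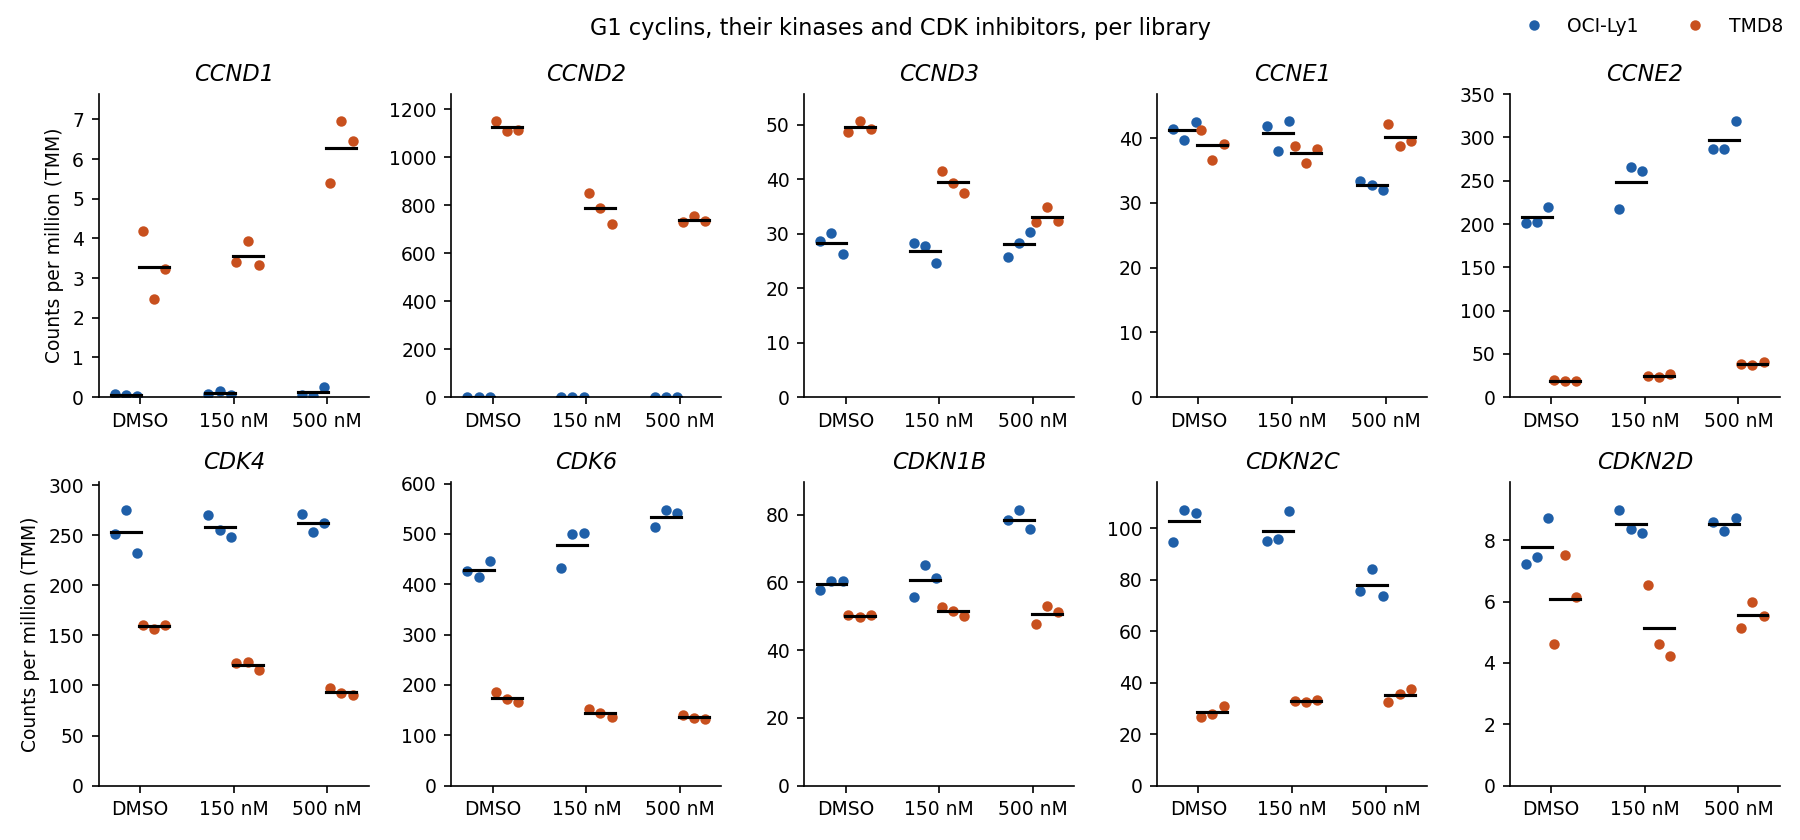
Counts per 1000000 (TMM within each line, linear axes from 0) of the 10 members by dose, with 1 point per library and a bar at the mean of 3 libraries, OCI-Ly1 in blue and TMD8 in orange. CCND2 lies at 722 to 1150 in TMD8 and under 1 in OCI-Ly1, CDK4 steps down with dose in TMD8 alone, and CCNE2 steps up in both lines.

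The dose comparisons asked how each line's G1 genes differed after JIB-04. In TMD8 CCND2, CCND3, CDK4 and CDK6 fell at 150 nM and 500 nM, CCNE2 and CDKN2C rose at both, and CCND1 rose at 500 nM from a low level. The CDKN2C call at 150 nM held in 8 of 16 other settings. In OCI-Ly1 no member passed the test at 150 nM, and at 500 nM CCNE2, CDK6 and CDKN1B rose while CCNE1 and CDKN2C fell. CCNE2 was the 1 member called in the same direction in both lines, and CDK6 and CDKN2C were called in opposite directions. In TMD8 at 500 nM, 3 of 10 members were higher and 4 lower than with DMSO, where 29.9% and 30.7% of 15363 genes were. At 150 nM 2 were higher and 4 lower, against 19.2% and 25.0% of genes, and between the doses 2 were higher and 2 lower at 500 nM, against 13.7% and 15.0%. In OCI-Ly1 at 500 nM 3 of 8 members were higher and 2 lower than with DMSO, where 27.7% and 25.9% of 15638 genes were, and against 150 nM the counts were also 3 and 2, with 25.1% and 21.1% of genes. At 150 nM in OCI-Ly1 0 members were higher and 0 lower by edgeR, against 0.748% and 0.141% of genes; 2 members had an unadjusted p under 0.05, and DESeq2 called 1. These shares of members are near those of all genes, and the tested members' median log2 change at 500 nM was 0.09 in OCI-Ly1 and -0.07 in TMD8, against -0.0033 and 0.04 over all genes. The comparisons within a line share their DMSO libraries. In bulk RNA a change in how many cells are in a phase of the cycle and a change in RNA per cell cannot be told apart.

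**Figure D2:**
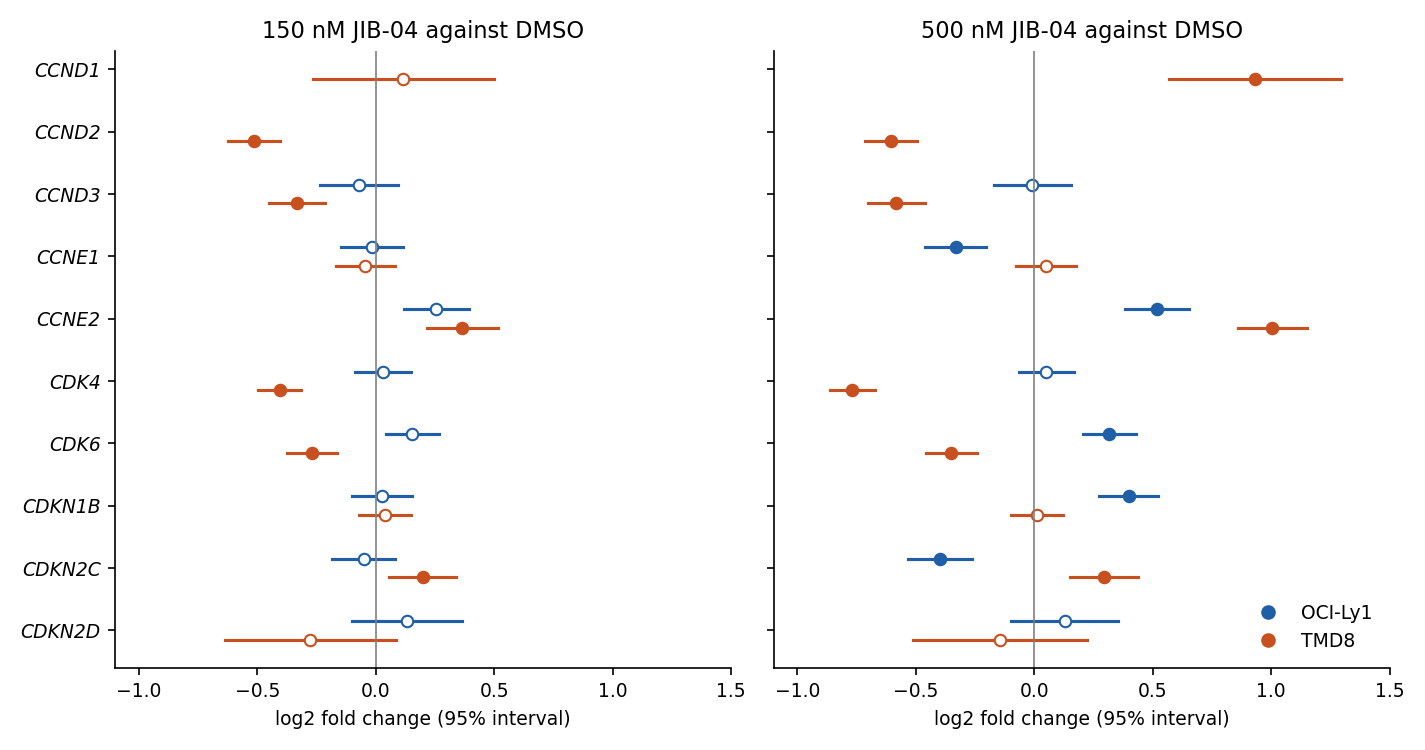
Log2 fold change against DMSO at 150 nM (left) and 500 nM (right) for each member, with its 95% interval, OCI-Ly1 in blue and TMD8 in orange; filled points passed an adjusted p under 0.05, and CCND1 and CCND2 were not tested in OCI-Ly1. At 500 nM CCND3, CDK4 and CDK6 lie below 0 in TMD8 and at or above -0.01 in OCI-Ly1.

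CCND2, the leading D cyclin of TMD8, had 1150, 1108 and 1114 CPM with DMSO, then 851, 789 and 722 at 150 nM, then 731, 755 and 733 at 500 nM. Every treated library lay below every DMSO library. CCND2 fell to 0.70-fold at 150 nM (log2 change -0.51 ± 0.06 SE, adjusted p = 1.3e-06) and to 0.658-fold at 500 nM (-0.60 ± 0.06, 4.4e-08). Between the doses it differed by -0.09 (95% interval -0.20 to 0.02, adjusted p = 0.26), so a further step was not resolved; without replicate 3 at 150 nM that difference was -0.17 with an adjusted p of 0.016.

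CCND3 in TMD8 had 48.6, 50.6 and 49.2 CPM with DMSO, then 41.4, 39.3 and 37.4 at 150 nM, then 32.1, 34.8 and 32.2 at 500 nM. The 3 groups did not overlap, and each step passed the test. CCND3 fell to 0.794-fold at 150 nM (log2 change -0.33 ± 0.06 SE, adjusted p = 2.0e-04) and to 0.668-fold at 500 nM (-0.58 ± 0.06, 2.6e-07). In OCI-Ly1, where it makes up nearly all D cyclin RNA, CCND3 had 28.7, 30.1 and 26.3 CPM with DMSO and 25.8, 28.3 and 30.3 at 500 nM, which overlap. The log2 change there was -0.01 (95% interval -0.17 to 0.15, adjusted p = 0.94), and the 2 lines differed in their 500 nM change by 0.60 ± 0.11 (OCI-Ly1 minus TMD8, adjusted p = 4.5e-05).

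CCND1 in TMD8 held 44 to 66 counts per library with DMSO and 63 to 93 at 500 nM. Its levels were 4.19, 2.47 and 3.22 CPM with DMSO, then 3.41, 3.94 and 3.32 at 150 nM, then 5.40, 6.96 and 6.44 at 500 nM, so the 500 nM libraries stood above the rest. CCND1 rose 1.91-fold at 500 nM (log2 change 0.93 ± 0.19 SE, adjusted p = 2.9e-04; 0.083 on unfiltered TPM), and at 150 nM the change was 0.12 (adjusted p = 0.66). It stayed a minor D cyclin. As shares of the summed TPM of D cyclins in TMD8, CCND1 went from 0.39 ± 0.10% to 1.12 ± 0.12% at 500 nM, CCND2 from 86.7 ± 0.38% to 85.9 ± 0.39%, and CCND3 from 12.9 ± 0.47% to 13.0 ± 0.28%. In OCI-Ly1 CCND3 held 99.7 ± 0.08% with DMSO and 99.6 ± 0.30% at 500 nM. CCND2 thus kept at least 84.5% of the D cyclin RNA of TMD8 in every library while both its own level and that of CCND3 fell.

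CCNE2, which activates CDK2 at the G1/S boundary, had 202, 202 and 219 CPM in OCI-Ly1 with DMSO, then 217, 266 and 261 at 150 nM, then 286, 287 and 319 at 500 nM. The 500 nM libraries were above the rest, while at 150 nM replicate 1 lay among the DMSO values. CCNE2 rose 1.43-fold at 500 nM in OCI-Ly1 (log2 change 0.52 ± 0.07 SE, adjusted p = 7.0e-06). At 150 nM the change was 0.25 (95% interval 0.12 to 0.39) with an adjusted p of 0.12; without replicate 1 of that group it was 0.35 with an adjusted p of 0.0022. In TMD8 CCNE2 had 20.0, 19.1 and 18.6 CPM with DMSO, then 24.1, 22.7 and 27.1 at 150 nM, then 38.0, 37.7 and 40.2 at 500 nM, 3 groups without overlap. It rose 1.29-fold at 150 nM (adjusted p = 7.8e-04; 0.24 on the TPM scale) and 2.01-fold at 500 nM (log2 change 1.0 ± 0.07 SE, adjusted p = 2.5e-09). The 500 nM change differed by -0.46 ± 0.11 on the log2 scale (OCI-Ly1 minus TMD8, adjusted p = 0.0012), the smaller rise being in OCI-Ly1, although this difference turned to 0.11 with an adjusted p of 0.56 on the TPM scale.

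CCNE1 behaved otherwise. In OCI-Ly1 it had 41.4, 39.7 and 42.4 CPM with DMSO, then 41.9, 38.0 and 42.6 at 150 nM, then 33.3, 32.8 and 32.0 at 500 nM, and the 500 nM libraries lay below all others. CCNE1 fell to 0.794-fold at 500 nM (log2 change -0.33 ± 0.07 SE, adjusted p = 4.2e-04). In TMD8 the values were 41.3, 36.6 and 39.0 CPM with DMSO and 42.2, 38.8 and 39.6 at 500 nM. The log2 change was 0.05 (95% interval -0.08 to 0.18, adjusted p = 0.54). On the TPM scale it was -0.31 (adjusted p = 0.020), where the median of all genes was -0.34. The lines differed in the 500 nM change by -0.35 ± 0.09 (adjusted p = 0.0032). On the TPM scale they differed by 0.12 (adjusted p = 0.39), where the median of all genes was 0.47. Within the E cyclins, CCNE2 made up 77.8 ± 0.54% of summed TPM in OCI-Ly1 with DMSO, then 80.8 ± 2.35% at 150 nM, then 86.3 ± 0.93% at 500 nM. In TMD8 its share was 25.6 ± 0.92%, 31.2 ± 1.55% and 40.1 ± 1.5%. The 500 nM shares lay above the DMSO shares in all libraries of both lines; the exact two-sided permutation p was 0.10, the smallest that 3 against 3 allows.

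**Figure D3:**
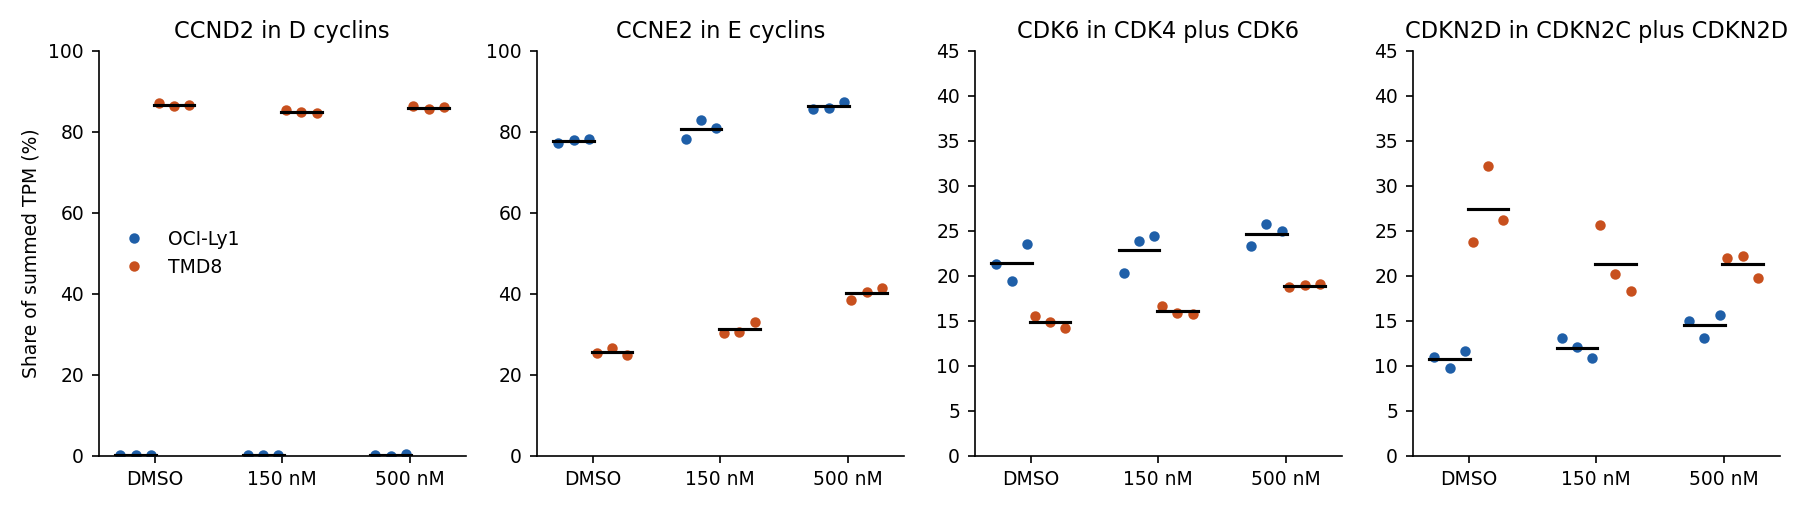
Share of summed TPM (%, linear axes from 0, with a shorter range on the right pair) held by CCND2 among D cyclins, CCNE2 among E cyclins, CDK6 in CDK4 plus CDK6, and CDKN2D in CDKN2C plus CDKN2D, by dose, with 1 point per library and a bar at the mean, OCI-Ly1 in blue and TMD8 in orange. CCNE2 goes from 25.6% to 40.1% in TMD8 and from 77.8% to 86.3% in OCI-Ly1, while CCND2 stays between 84.5% and 87.1% in TMD8.

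CDK4, the leading D cyclin partner by RNA in both lines, had 161, 156 and 161 CPM in TMD8 with DMSO, then 123, 123 and 115 at 150 nM, then 97.4, 92.2 and 90.4 at 500 nM. No library of one group overlapped another group. CDK4 fell to 0.755-fold at 150 nM (log2 change -0.41 ± 0.05 SE, adjusted p = 2.2e-06) and to 0.587-fold at 500 nM (-0.77 ± 0.05, 2.9e-10), and the doses differed by -0.36 (adjusted p = 3.1e-05). In OCI-Ly1 CDK4 had 251, 276 and 232 CPM with DMSO, then 270, 256 and 248 at 150 nM, then 271, 253 and 262 at 500 nM, all overlapping. The log2 change at 500 nM was 0.05 (95% interval -0.07 to 0.17, adjusted p = 0.49). On the TPM scale it was 0.19 (adjusted p = 0.013), where the median of all genes was 0.12. The difference between lines was 0.44 ± 0.08 at 150 nM (adjusted p = 3.5e-04) and 0.85 ± 0.08 at 500 nM (8.8e-09), the largest line difference among the 8 members tested in both. TSPAN31, which GENCODE v29 places on the other strand over the end of CDK4, had 10.2 ± 0.70 CPM in TMD8 with DMSO and 12.7 ± 1.6 at 500 nM, a log2 change of 0.32 (adjusted p = 0.018; 0.085 by DESeq2, and 0.051, 0.058 and 0.12 without DMSO replicate 2 and 500 nM replicates 1 and 2). On the TPM scale the sign turned, to -0.049 (adjusted p = 0.62). The counting is not stated to use strand, so reads of the overlap cannot be told apart.

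The promoter of CDK4 was chosen for display after values were seen, among them the stepwise fall of CDK4 in TMD8. The E-box letters CACGTG are read by the dimer of the transcription factors MYC and MAX. MYC was called in opposite directions in the 2 lines, with the values given among the transcription factors, whereas edgeR called CDK4 in TMD8 alone. An effect of MYC on CDK4 was not tested. The 250 bases before the RefSeq start of CDK4 (GRCh38.p14, chr12:57752311-57752560, minus strand, read towards the gene) hold 3 copies of CACGTG, in capitals, beginning 216, 196 and 101 bases before the start.
CDK4: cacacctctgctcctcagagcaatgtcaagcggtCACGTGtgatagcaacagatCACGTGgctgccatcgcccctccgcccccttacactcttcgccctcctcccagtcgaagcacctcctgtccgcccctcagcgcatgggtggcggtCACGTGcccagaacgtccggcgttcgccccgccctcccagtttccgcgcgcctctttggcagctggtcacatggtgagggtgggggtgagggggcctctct
Of 35116 RefSeq promoters searched over the same 250 bases, 2228 (6.34%) held at least 1 CACGTG and 28 (0.0797%) held at least 3; the letters read the same on both strands. Promoters of 7 of the 10 members were in the table. CDKN2C held 1 CACGTG in each of 2 of its 3 start sites, and the listed starts of CCND3, CDK6, CDKN1B, CDKN2D and CCNE1 held none. The E2F-type letters TTTCCCGC, TTTCGCGC, TTTGCCGC and TTTGGCGC, searched on both strands, were in 979 (2.79%) of all promoters and in none of these members' windows. Letters in a window are a description; binding was not measured.

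CDK6 had 185, 172 and 166 CPM in TMD8 with DMSO, then 153, 145 and 136 at 150 nM, then 141, 135 and 133 at 500 nM, and every treated library was below the DMSO libraries. It fell to 0.829-fold at 150 nM (log2 change -0.27 ± 0.05 SE, adjusted p = 5.3e-04) and to 0.784-fold at 500 nM (-0.35 ± 0.05, 2.2e-05). In OCI-Ly1 CDK6 moved the other way, from 426, 415 and 446 CPM with DMSO through 431, 500 and 501 at 150 nM to 513, 548 and 542 at 500 nM. There it rose 1.25-fold at 500 nM (log2 change 0.32 ± 0.06 SE, adjusted p = 1.4e-04). At 150 nM the change was 0.15 (95% interval 0.04 to 0.27, adjusted p = 0.32), and 0.23 with an adjusted p of 0.018 without replicate 1 of that group. The step from 150 nM to 500 nM (0.16, adjusted p = 0.025) lost its call without that library (0.09, adjusted p = 0.17) and without 500 nM replicate 2 (0.14, 0.11) or 3 (0.15, 0.076). The lines differed by 0.43 ± 0.09 at 150 nM (adjusted p = 7.5e-04) and 0.70 ± 0.09 at 500 nM (4.3e-07). As a share of CDK4 plus CDK6 TPM, CDK6 was 14.9 ± 0.70% in TMD8 with DMSO and 18.9 ± 0.15% at 500 nM, and 21.4 ± 2.1% and 24.7 ± 1.3% in OCI-Ly1, where the libraries overlapped.

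CDKN1B, which holds cyclin E and CDK2 inactive, had 57.8, 60.5 and 60.5 CPM in OCI-Ly1 with DMSO, then 55.7, 65.3 and 61.2 at 150 nM, then 78.3, 81.5 and 75.6 at 500 nM. The 500 nM libraries stood above all others. CDKN1B rose 1.32-fold at 500 nM in OCI-Ly1 (log2 change 0.40 ± 0.06 SE, adjusted p = 5.0e-05), and at 150 nM the change was 0.03 (adjusted p = 0.93). In TMD8 it had 50.3, 49.7 and 50.4 CPM with DMSO and 47.6, 53.0 and 51.1 at 500 nM. The log2 change was 0.01 (95% interval -0.10 to 0.12, adjusted p = 0.88). On the TPM scale it was -0.34 (adjusted p = 0.0097), where the median of all genes was also -0.34. The lines differed by 0.42 ± 0.09 at 500 nM (adjusted p = 2.6e-04).

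CDKN2C had 94.8, 107 and 106 CPM in OCI-Ly1 with DMSO, then 94.9, 95.7 and 107 at 150 nM, then 75.7, 84.3 and 73.8 at 500 nM, the last below all others. It fell to 0.759-fold at 500 nM (log2 change -0.40 ± 0.07 SE, adjusted p = 1.0e-04; 0.067 on unfiltered TPM). In TMD8 CDKN2C had 26.7, 28.0 and 31.1 CPM with DMSO, then 33.1, 32.3 and 33.1 at 150 nM, then 32.6, 35.7 and 37.5 at 500 nM. It rose 1.23-fold at 500 nM (log2 change 0.29 ± 0.07 SE, adjusted p = 0.0020). On the TPM scale the change was -0.06 (adjusted p = 0.60), where the median of all genes was -0.34. The 1.15-fold rise at 150 nM (log2 change 0.20, adjusted p = 0.033) lost its call without DMSO replicate 1 or 2 or without 150 nM replicate 1 or 2 (adjusted p = 0.11, 0.095, 0.065 and 0.061) and by DESeq2 (0.083). On the TPM scale that change was 0.036 (adjusted p = 0.78). The lines differed in the 500 nM change by -0.66 ± 0.10 (adjusted p = 7.4e-06), and by -0.20 (adjusted p = 0.21) on the TPM scale.

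CDKN2D was the least abundant inhibitor and the least precise. It had 7.22, 7.45 and 8.72 CPM in OCI-Ly1 with DMSO and 8.58, 8.29 and 8.73 at 500 nM, and 4.63, 7.51 and 6.14 in TMD8 with DMSO and 5.14, 5.98 and 5.52 at 500 nM. The groups overlapped in both lines. The log2 change at 500 nM was 0.13 (95% interval -0.10 to 0.35) in OCI-Ly1 and -0.14 (-0.51 to 0.22) in TMD8, with adjusted p of 0.36 and 0.53. On the TPM scale the 500 nM change in TMD8 was -0.41 (adjusted p = 0.029), where the median of all genes was -0.34. At 150 nM in TMD8 the count-based change was -0.28 with an adjusted p of 0.24, and it passed without DMSO replicate 1 (-0.43, adjusted p = 0.0498) or 150 nM replicate 1 (-0.48, 0.046).

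Tested directly over the 8 members measured in both lines, the 500 nM change was higher in OCI-Ly1 than in TMD8 for 4 (CCND3, CDK4, CDK6 and CDKN1B) and lower for 3 (CCNE1, CCNE2 and CDKN2C), where 28.2% and 18.1% of 16604 genes were. At 150 nM the counts were 2 (CDK4 and CDK6) and 0, against 15.0% and 8.33% of genes. By edgeR 4 of the 8 members (CCND3, CDK4, CDK6 and CDKN2C) had an unadjusted p under 0.05 at that dose. The count of 2 became 4 when OCI-Ly1 150 nM replicate 3 or TMD8 150 nM replicate 1 was left out.

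Other genes of the pathway were counted by list and read against the shares of all genes given above. At 500 nM these were 27.7% higher and 25.9% lower in OCI-Ly1 and 29.9% and 30.7% in TMD8. At 150 nM in TMD8 they were 19.2% and 25.0%. Of 5 other CDK inhibitors, 4 were tested in OCI-Ly1, where 3 were higher and 1 lower at 500 nM. In TMD8 2 were tested, with 1 higher and 1 lower. CDKN1A (p21), the p53 target that inhibits CDK2, rose in both lines. In OCI-Ly1 it had 17.1 ± 0.76 CPM without drug, 38.1 ± 2.5 at the lower dose and 142 ± 2.5 at the higher, a log2 change of 3.05 at 500 nM (adjusted p = 5.3e-16), and in TMD8 77.7 ± 5.0, 163 ± 14.1 and 217 ± 5.8, a log2 change of 1.48 (2.4e-12). It was the 1 pathway gene of these lists called at 150 nM in OCI-Ly1. CDKN3, a phosphatase that acts on CDK2, fell in both (log2 change -0.56 and -1.57 at 500 nM). The INK4 genes CDKN2A and CDKN2B were found in OCI-Ly1 at 84.1 ± 4.7 and 4.95 ± 0.53 CPM with DMSO. In TMD8 CDKN2A had 0 counts in all 9 libraries, which allows up to 0.146 to 0.314 CPM at their depths, and CDKN2B had at most 1 count in a library. CDKN2B rose in OCI-Ly1 to 11.7 ± 1.2 CPM at 500 nM (log2 change 1.24, adjusted p = 3.8e-07).

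E2F-driven S-phase entry genes, 15 in all, fell widely in TMD8: 12 were lower and none higher at 150 nM, and 11 were lower and 2 higher at 500 nM. By library size alone 10 were lower and 1 higher at 150 nM and 8 lower and 3 higher at 500 nM, and on uncentred TPM 14 were lower and 0 higher at 500 nM. The 2 higher at 500 nM became 1 by RLE, DESeq2 and centred TPM and with any library but DMSO replicate 1 left out. The list's median log2 change was -0.33 and -0.29, against 0.01 and 0.04 over all genes. CCNA2, the S-phase cyclin, fell by 1.30 on the log2 scale at 500 nM, MCM5, a subunit of the replicative helicase, by 0.66, and the transcription factor MYBL2 by 0.63. In OCI-Ly1 4 were higher and 3 lower at 500 nM, with a median of 0.07. CCNA2 fell there by 0.50. These OCI-Ly1 counts moved with the scaling, to 7 and 2 by library size alone, to 9 and 1 on TPM and to 1 and 5 on centred TPM. They also moved to 1 and 2 without DMSO replicate 2 or 500 nM replicate 3, to 2 and 2 without 500 nM replicate 2, to 2 and 3 without DMSO replicate 3, and to 2 and 4 without 500 nM replicate 1. Of the 5 genes of CDK2 and its activation, 3 were lower in TMD8 at 500 nM (CDC25A, the phosphatase that activates CDK2, at -0.69, and CCNH and CDK7 of the CDK-activating kinase at -0.36 and -0.27) and 1 in OCI-Ly1 (CDC25A, -0.17). Both CDK7 in TMD8 and CDC25A in OCI-Ly1 lost their calls by library size alone (adjusted p = 0.070 and 0.24), CDC25A in OCI-Ly1 also on uncentred TPM (-0.035, adjusted p = 0.60), CDK7 also without DMSO replicate 1 (0.062), and CDC25A without DMSO replicate 2 (0.089) or 500 nM replicate 2 (0.12). The list in OCI-Ly1 turned from 0 higher and 1 lower to 1 and 0 by library size alone and to 2 and 0 on uncentred TPM, and in TMD8 it held 2 lower by library size alone and 5 on uncentred TPM, with 0 higher in each. CDK2 itself was at -0.09 in TMD8 (adjusted p = 0.16) and 0.10 in OCI-Ly1 (0.12).

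Of the 13 pocket proteins and E2F genes, 3 were higher and 5 lower at 500 nM in each line, and the split turned to 5 higher and 3 lower in OCI-Ly1 by library size alone and to 5 and 1 on uncentred TPM, where TMD8 had 1 and 10. E2F7, a repressor among the E2Fs, rose in both (0.56 and 0.93), TFDP1, the E2F partner, fell in both (-0.23, not called on uncentred TPM, and -0.79), and E2F5 fell in OCI-Ly1 (-0.59) and was at 0.03 in TMD8 (adjusted p = 0.76). Of 13 genes of ubiquitin ligases that degrade cyclins and p27, OCI-Ly1 had 4 higher and 6 lower, TMD8 1 higher and 8 lower; each OCI-Ly1 library of these groups left out in turn left 2 or 3 higher and 6 or 7 lower, with 2 higher without DMSO replicate 2 or 3 or 500 nM replicate 1 or 3. On uncentred TPM OCI-Ly1 had 4 higher and 3 lower, whereas TMD8 had none higher and 11 lower. CKS1B, which helps SKP2 bind p27, rose in OCI-Ly1 (0.39) and fell in TMD8 (-0.87), while RBX1 and CUL3 fell in both (-0.38 and -0.64, -0.50 and -0.44).

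Of 8 transcription factors known to act on the member genes, OCI-Ly1 had 6 higher and 0 lower at 500 nM by edgeR and DESeq2 alike, and TMD8 had 5 higher and 2 lower, or 2 higher and 3 lower on uncentred TPM. In OCI-Ly1 7 were higher by library size alone, 7 of 7 tested on uncentred TPM and 5 of 7 on centred TPM, with 0 lower in each. MYC rose from 315 ± 15.2 to 399 ± 9.4 CPM at 500 nM in OCI-Ly1 (log2 change 0.34, adjusted p = 1.1e-05) and fell in TMD8, where it had 348 ± 16.5 CPM without drug, 224 ± 16.2 at the lower dose and 155 ± 4.4 at the higher (log2 change -1.16, adjusted p = 1.1e-11). FOXO3, of the FOXO factors that act on CDKN1B, rose in both lines (0.64 and 0.83). STAT5A rose in TMD8 from 5.07 ± 0.27 to 26.3 ± 2.3 CPM (2.37), and in OCI-Ly1 it went from 0 to 7.28 estimated counts per library with DMSO to 12.8 to 26.0 at 500 nM.

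**Figure D4:**
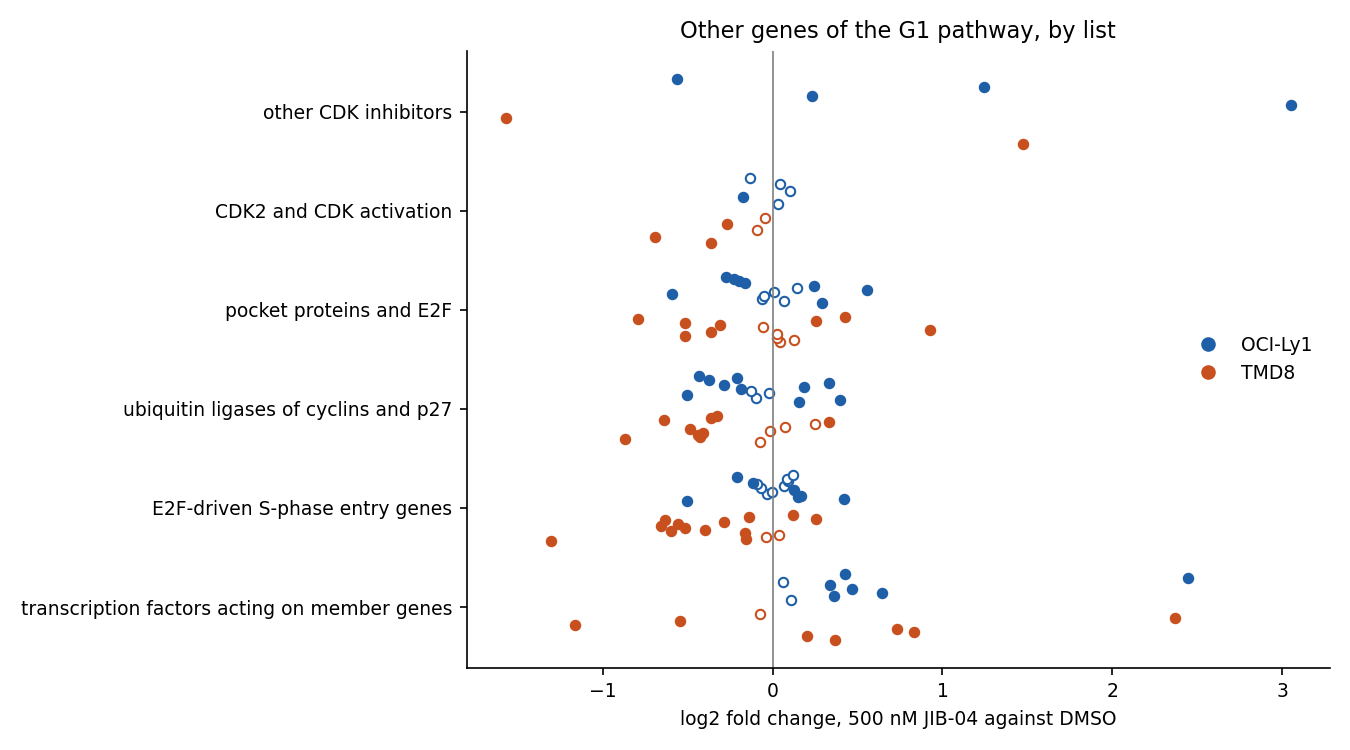
Log2 fold change at 500 nM JIB-04 against DMSO of each tested gene in 6 lists of the G1 pathway, OCI-Ly1 in blue and TMD8 in orange; filled points passed an adjusted p under 0.05, and vertical position within a row only spreads the points. In TMD8 11 of the 15 S-phase entry genes lie below 0 and passed, against 3 in OCI-Ly1.

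The genes whose log2 CPM followed a member most closely were found by the mean of Pearson's r in the 2 lines, each over 9 libraries and 9949 candidate genes. The libraries share their dose groups, so any gene that steps with dose in both lines scores highly, and the values are a description. CCNE2 was followed by LEMD3 (mean r = 0.987), CDK6 by PCGF5 (0.976), CDK4 by BCAP31 (0.962), CDKN2C by SLC4A8 (0.916), CCND3 by SLC5A6 (0.903), CDKN1B by SLC43A1 (0.890) and CCNE1 by FAM120B (0.881). CDKN2D reached 0.661 at most, with ERCC8.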

How the data were processed

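RNA of the 18 libraries was depleted of ribosomal RNA and sequenced as paired ends, per the labels' protocols. For each line the authors deposited estimated counts and TPM in separate tables; kallisto 0.46.0, R 4.3.1, DESeq2 1.40.2 and hg19 are named in the submitters' processing notes. The index, annotation and step from transcripts to genes are not given in the sources used here. Estimated counts were rounded and tested with edgeR 4.0.16 in R 4.3.3 (glmQLFit, glmQLFTest) after filterByExpr and TMM scaling, with 1 term per group and the 9 libraries of a line in 1 fit. Line differences used 1 fit of 18 libraries. A gene was called at a Benjamini-Hochberg adjusted p under 0.05 over all genes of the contrast, and SE is the absolute log2 change over the root of F. The 95% intervals of log2 changes use this SE with a normal quantile, so they are somewhat narrower than the F test would give. Shares were taken from the deposited TPM. The 18 pairs of libraries within groups had chi-square per degree of freedom from 1.62 to 10.9, so none counted as a duplicate. The members, lists and tests were chosen with earlier results of these data known. All members were to be named, and per list at most 3 called genes with the largest change at 500 nM. CDK2, CDKN2A and TSPAN31, the promoter window and its motifs, and other scalings of the list counts were added after values were seen. The alternatives were RLE or library-size scaling, no filter, DESeq2 1.42.0, limma 3.58.1 on log2(TPM + 1) or log2(TPM + 0.1) with at least 1 TPM in 3 libraries, no TPM filter, centring, a replicate block, the compared groups only, limma-voom and each library left out. Scripts were tested on simulated counts. Antisense neighbours of CCND2 and CDK6 were not analysed here.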

Additional observations from a re-analysis of the deposited data

Results flagged for a closer look

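A difference between the lines in the change against DMSO, tested as such in the fit of 18 libraries, marked 9 results (edgeR, OCI-Ly1 minus TMD8, log2 scale, 3 libraries per group). At 150 nM they were CDK4 (0.44) and CDK6 (0.43). At 500 nM they were CDK4 (0.85), CDK6 (0.70), CCND3 (0.60), CDKN1B (0.42), CCNE1 (-0.35), CCNE2 (-0.46) and CDKN2C (-0.66). For CCNE2 both lines rose and the size differed, for CDK6 and CDKN2C the lines were called in opposite directions, and for the other 4 genes at 500 nM 1 line was called and the other was not. Line and medium cannot be told apart.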

How the results depend on the processing

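Over 80 changes of members, 1364 values were recomputed, of which 1212 kept their direction and their side of the threshold and 88 changed sign, 67 of them without passing in either fit. Of the 43 called changes, 305 of 312 values with a library left out, 257 of 258 under the other count settings and 133 of 163 on TPM scales kept theirs. All 12 reversals of called changes were on TPM scales. TPM moved the median log2 change of all genes at 500 nM in TMD8 from 0.04 to -0.34 (pseudocount 1) or -0.40 (0.1), and the line medians to 0.47 and 0.55 at 500 nM and 0.80 and 0.98 with DMSO; centring left no called change reversed.

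With log2(TPM + 1), filtered or not, and log2(TPM + 0.1), the 500 nM change in TMD8 was -0.31 and -0.33 for CCNE1, -0.34 and -0.36 for CDKN1B and -0.057 and -0.062 for CDKN2C. The line difference at 500 nM was 0.12 and 0.13 for CCNE1 and 0.11 and 0.035 for CCNE2. The DMSO difference between lines was 0.057 and 0.060 for CCND3 and 0.88 and 0.92 for CCNE1.

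The changes that passed in neither fit and changed sign are given with the main value in parentheses. Pairs of TPM values are for pseudocounts 1 (filtered or not) and 0.1. CCND3 at 500 nM in OCI-Ly1 (-0.0080) became 0.13 and 0.14 on TPM and 0.080 by library size alone. CDKN2D between doses in OCI-Ly1 (-0.0026) became 0.061 and 0.066 on TPM and 0.077 by library size alone. CCNE1 at 150 nM in OCI-Ly1 (-0.016) became 0.018 on TPM with either pseudocount. CDK4 at 500 nM in OCI-Ly1 (0.050) became -0.0030 on centred TPM. CDK4 between doses in OCI-Ly1 (0.020) became -0.032 on centred TPM. CCNE1 at 150 nM in TMD8 (-0.045) became 0.041 by library size alone. CDKN1B at 500 nM in TMD8 (0.011) became -0.011 by DESeq2 and -0.012 without the count filter. CDKN1B at 150 nM in TMD8 (0.038) became -0.11 on TPM with either pseudocount. CCNE1 between doses in TMD8 (0.093) became -0.12 and -0.13 on TPM. CDKN2C between doses in TMD8 (0.096) became -0.093 and -0.10 on TPM. CDKN2D between doses in TMD8 (0.13) became -0.074 and -0.091 on TPM. CCND1 at 150 nM in TMD8 (0.12) became -0.017 on unfiltered TPM. CDKN1B in the 150 nM line difference (-0.0045) became 0.16 and 0.17 on TPM, 0.016 by RLE, 0.018 by DESeq2, 0.0020 without the count filter and 0.016 on centred TPM. CCNE1 in the 150 nM line difference (0.037) became -0.050 by library size alone. CCNE1 with DMSO between lines (-0.039) became 0.11 by library size alone and 0.081 on centred TPM. CCNE2 in the 150 nM line difference (-0.10) became 0.11 and 0.089 on TPM. With libraries left out, those that changed sign ranged from -0.066 to 0.050 for CCND3 at 500 nM in OCI-Ly1, -0.029 to 0.029 for CDKN2D between doses in OCI-Ly1, -0.046 to 0.037 for CCNE1 at 150 nM in OCI-Ly1, -0.011 to 0.11 for CDK4 at 500 nM in OCI-Ly1, -0.011 to 0.047 for CDK4 between doses in OCI-Ly1, -0.023 to 0.097 for CDK4 at 150 nM in OCI-Ly1, -0.027 to 0.091 for CDKN1B at 150 nM in OCI-Ly1, -0.027 to 0.054 for CDKN1B at 500 nM in TMD8, -0.023 to 0.33 for CDKN2D between doses in TMD8, -0.054 to 0.31 for CCND1 at 150 nM in TMD8, -0.30 to 0.026 for CDKN2D at 500 nM in TMD8, -0.066 to 0.017 for CDKN1B between doses in TMD8, -0.057 to 0.054 for CDKN1B in the 150 nM line difference, -0.0091 to 0.091 for CCNE1 in the 150 nM line difference and -0.087 to 0.0072 for CCNE1 with DMSO between lines.

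In OCI-Ly1 at 150 nM the members called went from 0 to 1 (CCNE2) by DESeq2, without the count filter and with the replicate block, and from 0 to 2 with libraries left out. Genes called there went from 139 to 244 by DESeq2, 323 without the filter, 60, 67, 48 and 47 on TPM (pseudocount 1, 0.1, centred, unfiltered), 81 with the compared groups only, and 65 to 339 with libraries left out (339 without 150 nM replicate 1, 86 without DMSO replicate 2, 65 without 150 nM replicate 2). Members called between the doses in OCI-Ly1 went from 5 to 3 on centred TPM. Unfiltered TPM gave 4284 genes in place of 6790 in TMD8 at 150 nM, and 2 members in place of 4 between its doses. The line difference at 150 nM held 2 to 4 members with libraries left out. In CPM, CCNE2's share gained 6.62 points in place of 8.49 in OCI-Ly1, and CDK6's 7.16 in place of 4.03 in TMD8.

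The share of calls that were higher at 500 nM against DMSO was 51.6% in OCI-Ly1 and 49.3% in TMD8. It became 64.0% and 59.4% by library size alone, 71.8% and 13.9% on TPM, and 40.0% in OCI-Ly1 on centred TPM. At 150 nM in TMD8 it went from 43.5% to 60.5% by library size alone and 16.9% on TPM, and in OCI-Ly1 from 84.2% to 95% on TPM, 68.1% without the count filter, and 70.2% and 72.2% without DMSO replicates 1 and 3. Between doses it went from 54.3% to 67.9%, 72.2% on TPM and 40.3% centred in OCI-Ly1, and from 47.9% to 6.21% on TPM in TMD8. For line differences it went from 64.2% to 47.0% and 86.9% on TPM at 150 nM, from 60.9% to 91.4% on TPM and 50.9% centred at 500 nM, and from 49.2% to 81.1% on TPM with DMSO.

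Replicate numbers paired the libraries weakly at most: deviations of same-numbered libraries correlated from -0.05 to 0.15, with 4 of 18 pairs above 0.1 and 5 libraries best matched to their own number. Those 4 pairs were replicates 1 and 3 between DMSO and 150 nM (0.12 and 0.15 in OCI-Ly1, 0.13 and 0.14 in TMD8). What these libraries share was not tested. The replicate block gave OCI-Ly1 1 member at the lower and 5 at the higher dose, TMD8 6 and 7, and 207, 8615, 6827 and 9390 genes. Between doses it gave 5 members in OCI-Ly1 and 4 in TMD8 (7540 and 4582 genes), and between lines 2, 7 and 7 (4156, 7888 and 11864 genes), so it changed no other count of members. At a few counts per library, changes of CCND1 and CCND2 in OCI-Ly1 were not detectable. Counts of the pathway lists under other scalings and with libraries left out were added after seeing the data.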
